A study of Mus musculus with 9 samples.

Results

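The expression of 9 protein-coding genes of the complement system, led by Cfd, which encodes adipsin (complement factor D), was followed through the differentiation of 3T3-L1 cells. With their Entrez gene identifiers they are Cfd (11537), C3 (12266), Cfb (14962), C2 (12263), C4b (12268), C1ra (50909), Serping1 (12258), Cd55 (13136) and Clu (12759). They were chosen by gene symbol, with earlier results of these data known, and they make up 9 of the 19094 genes listed in at least 1 sample. All 9 gene identifiers were listed in the deposited tables, and 8 of the 9 had enough reads to be tested, the exception being C2.

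3T3-L1 is a mouse embryonic fibroblast line that can be turned into fat-storing cells in a dish. RNA-seq libraries were made at day 0 (undifferentiated cells), day 4 and day 8 of differentiation, with 3 samples for each day. All samples came from the same cell line, kept in DMEM with fetal bovine serum, and from day 0 the cultures received dexamethasone, IBMX and insulin, followed by medium with insulin. The libraries held 18216114 to 20452144 expected counts (reads assigned to genes by a model that can split a read between genes). The cells of a stage were pooled for RNA extraction and no source states that the replicates were separate cultures, so the p-values measure the spread between these samples, which may be technical. Because each sample is a mixture of cells, more cells expressing a gene and more RNA per cell cannot be told apart. The comparisons were the early phase (day 4 against day 0), the late phase (day 8 against day 4) and the whole process (day 8 against day 0). Each pair of comparisons shares the samples of 1 day, so they are not independent of each other.

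Complement is a cascade of plasma and membrane proteins in which proteases cut the central protein C3 and mark surfaces for clearance. In the alternative pathway, adipsin is the serine protease that cuts factor B once factor B is bound to C3b, which forms the enzyme that cuts more C3. In the classical pathway, C1r activates C1s, which cuts C4 and C2, and the C1 inhibitor encoded by Serping1 holds those proteases in check. Adipsin was first described in 3T3 adipocytes and is secreted mainly by fat cells, whereas most circulating complement proteins come from the liver.

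The labelled cell type was checked against marker genes. Adipoq, the gene of the fat-cell hormone adiponectin, had 0.28 to 0.63 FPKM (fragments scaled to transcript length and library size) in the day 0 samples, 374 to 561 in those of day 4 and 753 to 866 in those of day 8. All 8 adipocyte markers examined were upregulated in the early phase and across the whole process. Their summed FPKM was 143.5 to 148.7 in the day 0 samples, 5720 to 8134 in the day 4 samples and 8223 to 8962 in the day 8 samples. The most abundant of them was Lpl (114 to 121 FPKM) at day 0 and Fabp4 at the later days. In the late phase 1 of the 8, Lep, was upregulated, where 4.24% of all tested genes were, and 7 of the 8 were higher by the adjusted p alone. The exception was Cidec, with means of 773 and 776 FPKM at days 4 and 8 (log2 difference 0.05, adjusted p = 0.66 in edgeR). The part of these markers in the differences of Cfd was not tested. The labels name adipocytes as the cell type of every sample, day 0 included. The 6 fibroblast markers summed to 6940 to 7189 FPKM in day 0 samples, 4972 to 5440 in day 4 samples and 6800 to 7007 in day 8 samples, with Vim the most abundant at days 0 and 4 and Col1a2 at day 8. Single markers differed within that sum, and Dlk1, a preadipocyte gene, had means of 828, 181 and 415 FPKM at days 0, 4 and 8. Of 9 macrophage markers 8 were listed. Their summed level was 7.16 to 9.05 FPKM in day 0 samples, 5.15 to 6.42 in day 4 samples and 5.09 to 5.78 in day 8 samples. Cd14 was the most abundant on each day, at up to 4.94. Cd68 and Csf1r were listed in all 9 samples, at up to 1.81 and 0.44 FPKM, while Adgre1 and Ptprc did not exceed 0.03 and 0.04. Of the macrophage markers, Lyz2 was downregulated in the early phase (log2 difference -2.1, adjusted p = 2.1e-05 in edgeR). It was upregulated in the late phase (log2 difference 1.25, adjusted p = 0.0093 in edgeR). The other 3 tested macrophage markers were not called. Markers of endothelial cells summed to at most 0.5 FPKM, with Pecam1 the highest at up to 0.30, and markers of hepatocytes summed to at most 0.30, with Apoa1 the highest at up to 0.21. Pecam1 was upregulated in the late phase (log2 difference 1.01, adjusted p = 0.027 in edgeR) and over the whole process (1.1, adjusted p = 0.011 in edgeR). Cdh5 and Tek, too low to test, had means of 0.147 and 0.137 FPKM at day 0 and 0.0167 and 0.04 at day 8. The extraction text in the labels mentions removal of DRG, which is not spelled out there and is a usual abbreviation for sensory ganglia. The 8 markers of sensory neurons summed to 2.86 to 3.19 FPKM in day 0 samples, 0.58 to 0.73 in day 4 samples and 0.79 to 1.01 in day 8 samples. Most abundant was Avil, at up to 2.62 FPKM, which was downregulated in the early phase (log2 difference -2.11, adjusted p = 7.4e-09 in edgeR), while Scn10a had no more than 0.01. The part of these markers of other cell types in the results was not tested.

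The 2 members with the highest levels after differentiation, Cfd and C3, are shown with the DNA before their annotated starts (RefSeq, GRCm38.p6, 250 bases, read on the gene's strand), since both went from lower to higher transcript levels over the whole process. The window of Cfd lies at chr10:79890603-79890852 on the plus strand and that of C3 at chr17:57228137-57228386 on the minus strand. Capitals mark matches to TTNCNNAA, a short form of the C/EBP binding motif searched on both strands, since C/EBP factors are known regulators of fat-cell genes.
Cfd: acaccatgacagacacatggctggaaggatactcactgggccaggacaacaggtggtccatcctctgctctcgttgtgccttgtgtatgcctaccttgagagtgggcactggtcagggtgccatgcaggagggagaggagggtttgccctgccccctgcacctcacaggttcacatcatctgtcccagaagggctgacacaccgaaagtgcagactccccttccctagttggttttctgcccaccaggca
C3: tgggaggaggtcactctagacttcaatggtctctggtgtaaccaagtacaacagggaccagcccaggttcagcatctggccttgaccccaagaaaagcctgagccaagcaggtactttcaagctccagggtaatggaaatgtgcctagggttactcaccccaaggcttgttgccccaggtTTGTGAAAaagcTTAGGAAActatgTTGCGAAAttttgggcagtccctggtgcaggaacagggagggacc
The C3 window held 3 matches that do not overlap each other, with first bases at -70, -58 and -45 from the start. The first pair read on the opposite strand and the match at -45 read on both. The Cfd window held 0 matches, which says only that these letters are not in this window. The motif is common, being present in 36.8% of 32851 promoter windows of this length. The TATA box TATAAA, the interferon-stimulated response element and the STAT motif TTCNNNGAA, present in 12.4%, 2.98% and 7.02% of all windows, had no match in any member's window. Windows were found for 4 of the 9 members. Those of C1ra (chr6:124512371-124512620, plus strand) and Cd55 (chr1:130462745-130462994, minus strand) held 2 and 0 matches. No window was used for Cfb, C2, C4b, Serping1 and Clu.

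Cfd had the largest fold change of the 8 tested members in each of the 3 comparisons. Its level was 0.22, 0.37 and 0.32 FPKM in replicates 1, 2 and 3 at day 0, from only 4 to 6 expected counts per sample. At day 4 it was 201, 263 and 324 FPKM, and at day 8 it was 542, 612 and 673 FPKM. The 3 days did not overlap, and every day 8 sample was above every day 4 sample. In the early phase Cfd was upregulated by 9.81 on the log2 scale (SE 0.27, 896-fold, edgeR quasi-likelihood test, adjusted p = 2.1e-14). It was upregulated again in the late phase by 1.26 (SE 0.12, 2.39-fold, adjusted p = 3.1e-07 in edgeR), and over the whole process by 11.07 (SE 0.26, 2145-fold, adjusted p = 3.9e-15 in edgeR). The folds against day 0 rest on few counts. With limma on log2(FPKM + 1), which compresses low values, the early and whole-process differences of Cfd were 7.64 and 8.87, still called. A count of 3, taken as the least that a library could show, was worth 0.147 to 0.165 CPM here (counts scaled to the library total), and it covers counting error only. Ranked by FPKM among all listed genes, Cfd stood between positions 12232 and 12893 at day 0, 208 and 313 at day 4 and 89 and 118 at day 8.

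C3, the protein on which all complement pathways converge, had a different course. It was already present at day 0 at 40.8, 38.8 and 51.3 FPKM. At day 4 it stood at 607, 620.1 and 620.3 FPKM, and at day 8 it was lower again at 274, 312 and 312 FPKM. The days did not overlap, with day 4 the highest and day 0 the lowest. C3 was upregulated in the early phase by 3.88 on the log2 scale (SE 0.09, 14.8-fold, adjusted p = 6.0e-15 in edgeR) and over the whole process by 2.89 (SE 0.09, 7.41-fold, adjusted p = 1.1e-13 in edgeR). In the late phase its log2 difference was -1.0 (SE 0.08, adjusted p = 8.5e-08 in edgeR), a fold of 1.99 that stood just under the 2-fold threshold used for a call, so that C3 was not called lower. Without day 4 replicate 1, day 8 replicate 2 or day 8 replicate 3 the value was -1.01, -1.02 or -1.01 and passed. C3 alone took 0.315 to 0.322% of all expected counts at day 4 and 0.142 to 0.162% at day 8.

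**Figure D1:**
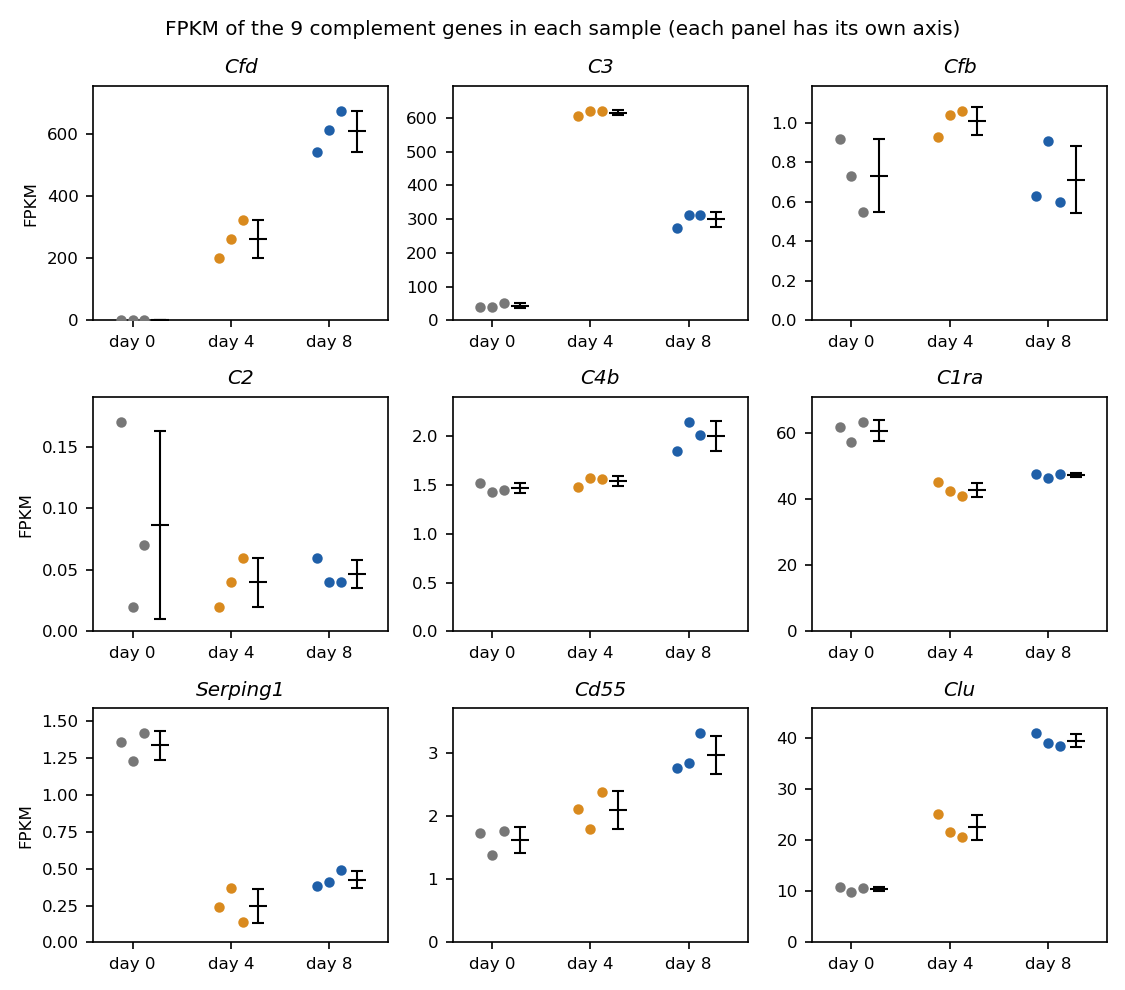
FPKM of the 9 complement genes in each of the 9 samples, by day of differentiation, with 1 panel per gene and its own linear axis from 0. Points are samples, and the black marks beside them are the mean and SD of 3 samples. Cfd climbs from below 1 FPKM to between 542 and 673, C3 peaks at day 4, Clu climbs at both steps and Serping1 is highest at day 0.

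Cfd and C3 exchanged their order between day 4 and day 8. The ratio of the FPKM of Cfd to that of C3 was 0.00540 to 0.00953 in the day 0 samples, 0.332 to 0.522 in the day 4 samples and 1.96 to 2.16 in the day 8 samples. The ranges did not overlap between any 2 days. The exact two-sided permutation test gave p = 0.1 for each pair of days, which is the smallest value that 3 samples against 3 can give.

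**Figure D2:**
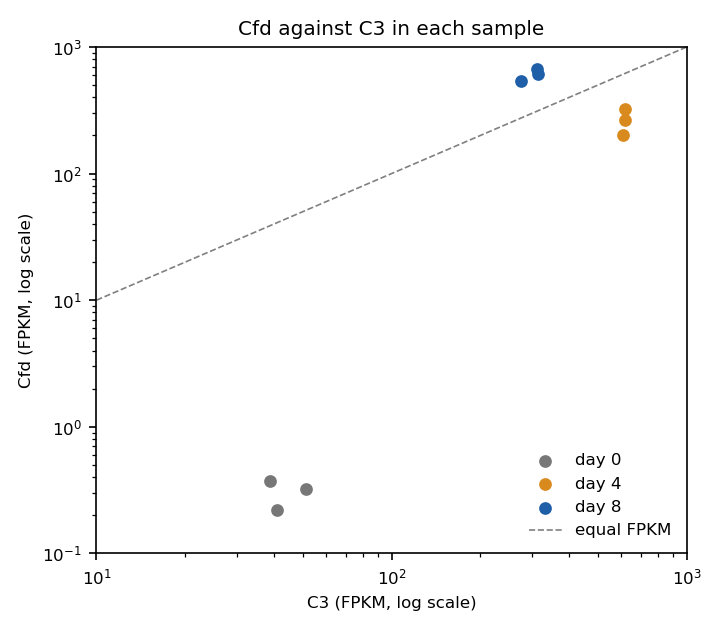
FPKM of Cfd (vertical, log scale) against that of C3 (horizontal, log scale) in the 9 samples, with the dashed line marking equal levels. Day 0 samples lie far below the line, day 4 samples lie below it at ratios of 0.332 to 0.522 and day 8 samples lie above it at ratios of 1.96 to 2.16.

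Cfb encodes factor B, the substrate of adipsin. It remained near 1 FPKM, at 0.92, 0.73 and 0.55 at day 0, 0.93, 1.04 and 1.06 at day 4 and 0.63, 0.91 and 0.60 at day 8. The day 0 and day 8 ranges overlapped, and all day 4 samples were above those of the other days. The log2 differences were 0.53 (SE 0.22, adjusted p = 0.041), -0.46 (SE 0.22, adjusted p = 0.10) and 0.07 (SE 0.23, adjusted p = 0.80) in the early phase, the late phase and the whole process in edgeR, and none was called. The ratio of the FPKM of C3 to that of Cfb, taken in each sample, averaged 63.6 ± 26.1, 611 ± 36.1 and 432 ± 88.1 (SD, n = 3) on days 0, 4 and 8. Of the 50-base stretches of the Cfb transcripts, 73% are shared with another annotated gene, Gm20547, so the split of reads between those genes is uncertain.

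C2, the classical-pathway counterpart of factor B and its neighbour in the genome, was close to absent. Its level was at most 0.17 FPKM, in day 0 replicate 1, and 7 of the 9 samples held 3 or fewer expected counts. It was too low to test, and 41.5% of its stretches are shared with other genes, mostly Gm20547. C4b encodes the C4 protein that the classical pathway cuts. Its FPKM was 1.52, 1.43 and 1.45 at day 0, 1.48, 1.57 and 1.56 at day 4, and 1.84, 2.14 and 2.01 at day 8. The day 0 and day 4 samples overlapped, and the day 8 samples lay above both. The log2 difference was 0.14 (SE 0.10, adjusted p = 0.24) in the early phase, 0.42 (SE 0.10, adjusted p = 0.0022) in the late phase and 0.56 (SE 0.10, adjusted p = 9.2e-05) over the whole process in edgeR, each below 2-fold and not called. With 34.6% of C4b stretches shared with C4a, its closest relative, the sum of C4a and C4b was also taken. It was 9.01 ± 0.420, 9.67 ± 0.411 and 11.95 ± 1.13 CPM at days 0, 4 and 8 (SD, n = 3).

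C1ra, the gene of a C1r protease that starts the classical cascade, was the most abundant of the 9 genes at day 0. It stood at 61.8, 57.3 and 63.4 FPKM at day 0, 45.2, 42.4 and 40.9 at day 4, and 47.7, 46.6 and 47.7 at day 8. Day 0 was the highest and day 4 the lowest, without overlap. The log2 difference was -0.44 (SE 0.05, adjusted p = 1.7e-06) in the early phase, 0.19 (SE 0.05, adjusted p = 0.0092) in the late phase and -0.25 (SE 0.05, adjusted p = 4.6e-04) over the whole process in edgeR. None reached 2-fold. Since 50.8% of its stretches are shared with other genes, mostly C1rb, its level alone is uncertain. The sum of C1ra and C1rb was 283.4 ± 15.8, 216.3 ± 15.04 and 248.2 ± 2.05 CPM at days 0, 4 and 8 (SD, n = 3), which had the same order of days.

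The regulators were Serping1, Clu and Cd55. Serping1, the C1 inhibitor, was low throughout, with 41 to 53 expected counts in the day 0 samples, 5 to 14 in the day 4 samples and 14 to 18 in the day 8 samples. Its FPKM was 1.36, 1.23 and 1.42 at day 0, 0.24, 0.37 and 0.14 at day 4, and 0.38, 0.41 and 0.49 at day 8. Day 0 lay above both later days without overlap. It was downregulated by 2.32 on the log2 scale (log2 difference -2.32, SE 0.29, 4.99-fold, adjusted p = 2.5e-06 in edgeR) in the early phase and by 1.53 (log2 difference -1.53, SE 0.26, 2.89-fold, adjusted p = 6.7e-05 in edgeR) over the whole process. The late-phase difference of 0.79 (SE 0.35, adjusted p = 0.080 in edgeR) did not pass, although without day 4 replicate 2 it was 1.21 with an adjusted p of 0.023. With limma on log2(FPKM + 1), a scale that compresses low genes, the early and whole differences of Serping1 were -0.91 and -0.71, below 2-fold.

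Clu encodes clusterin, a secreted chaperone that also binds late complement proteins. Its level was 10.9, 9.96 and 10.6 FPKM at day 0, 25.3, 21.6 and 20.7 at day 4, and 41.1, 39.0 and 38.6 at day 8. Each day lay above the one before it, without overlap. Clu was upregulated by 1.17 on the log2 scale (SE 0.08, 2.25-fold, adjusted p = 9.0e-10 in edgeR) in the early phase and by 2.03 (SE 0.07, 4.07-fold, adjusted p = 6.6e-13 in edgeR) over the whole process. Its late-phase difference of 0.86 (SE 0.07, 1.81-fold, adjusted p = 4.1e-08 in edgeR) was below 2-fold.

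Cd55 encodes decay-accelerating factor, a membrane protein that takes apart the enzymes that cut C3. Its FPKM was 1.73, 1.38 and 1.76 at day 0, 2.11, 1.80 and 2.39 at day 4, and 2.76, 2.85 and 3.32 at day 8. As with Clu, each day lay above the one before it, by a narrow margin between day 0 and day 4. The log2 difference was 0.43 (SE 0.15, adjusted p = 0.019) in the early phase, 0.55 (SE 0.14, adjusted p = 0.0039) in the late phase and 0.98 (SE 0.14, 1.97-fold, adjusted p = 1.4e-05) over the whole process in edgeR. None was called. The whole-process value passed 2-fold without day 0 replicate 1 (1.03), day 0 replicate 3 (1.04), day 8 replicate 1 (1.04) or day 8 replicate 2 (1.01).

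Set against all genes tested, calls among the members were counted as follows, a call being an adjusted p below 0.05 and a fold above 2. Since the members were chosen with earlier results of these data known, the counts are a description only. In the early phase 3 of the 8 tested members (Cfd, C3 and Clu) were upregulated and 1 (Serping1) was downregulated, where 9.77% and 7.98% of the 13154 tested genes were. In the late phase 1 member (Cfd) was upregulated and 0 were downregulated, against 4.24% and 2.81% of all tested genes. Of the members that were not called lower, C3 and Cfb had late-phase differences below 0, with adjusted p = 8.5e-08 and 0.10 in edgeR. Over the whole process 3 members were upregulated and 1 was downregulated, against 10.3% and 7.70%. By the adjusted p alone, 7, 6 and 7 members passed in the early phase, the late phase and the whole process, where 69.2%, 45.3% and 71.0% of all genes did. The median log2 difference of the tested members was 0.48, 0.49 and 0.77 in the 3 comparisons, and that of all tested genes was 0.02, -0.01 and -0.02.

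**Figure D3:**
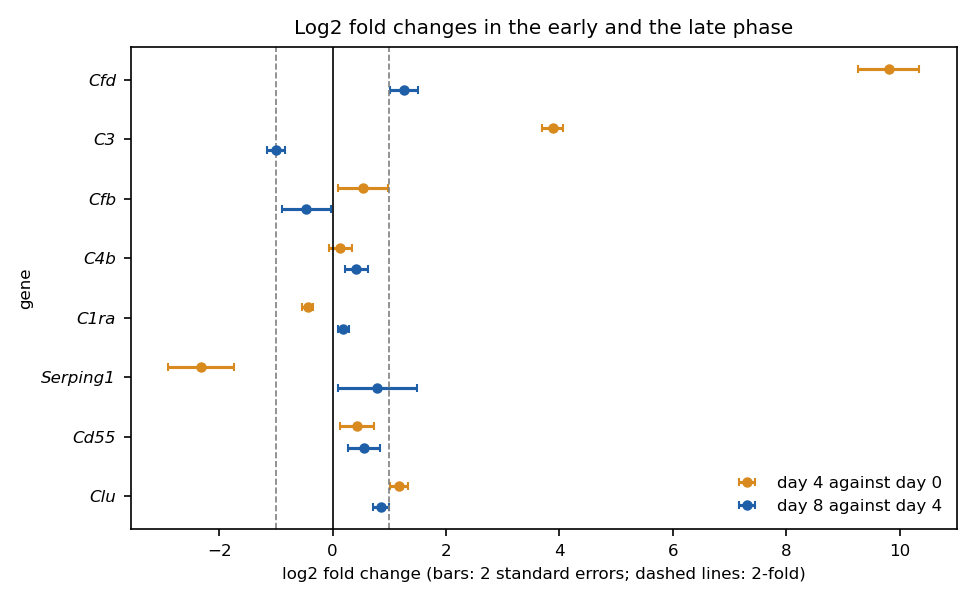
Log2 fold changes (horizontal) of the 8 tested members (vertical) in the early phase (orange) and the late phase (blue), as fitted by edgeR. Points are estimates, bars are 2 standard errors to each side and dashed lines mark 2-fold. Cfd stands at 9.81 and 1.26, C3 at 3.88 and -1.0, and Serping1 at -2.32 and 0.79.

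The order of the members by FPKM, a measure per transcript length, changed with the day. At day 0 it was C1ra, C3, Clu, Cd55, C4b, Serping1, Cfb, Cfd and C2. Here Cd55 and C4b overlapped and no other neighbours did. Cd55 also overlapped Serping1, which is not its neighbour, with a lowest value of 1.38 FPKM against a highest of 1.42. At day 4 the order was C3, Cfd, C1ra, Clu, Cd55, C4b, Cfb, Serping1 and C2, and at day 8 Cfd was first and C3 the next, with the rest as at day 4. At both of these days no neighbours overlapped.

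Genes whose log2 CPM followed a member most closely over the 9 samples were found by Pearson's r, given here as a description. The 9 samples form 3 days, so any gene that differs in the same way between days has a high r. The 5 closest to Cfd were Lipe (0.9994), which encodes hormone-sensitive lipase, Cebpa (0.9993), a fat-cell transcription factor, Uqcrc2 (0.9992), a subunit of respiratory complex III, Sh2b2 (0.9991), an insulin receptor adaptor, and Brk1 (0.9991). On log2(FPKM + 1) only 1 of these 5, Lipe, was again among the closest 5. The gene closest to C3 was Ear1 (0.9995), a ribonuclease gene of a family of closely related copies whose reads may be split between them, and it was not among the 5 closest on log2(FPKM + 1). The mean FPKM of Ear1 was 0.0233, 112 and 19.3 at days 0, 4 and 8. The gene closest to Clu was Olfml2b (0.9972), at 51.9, 86.4 and 140.0 FPKM. The closest gene had an r of 0.9900 for C4b (Nrbf2), 0.9879 for Serping1 (Whrn), 0.9863 for Cd55 (Prkce) and 0.8758 for Cfb (Ube2j1).

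The rest of the complement system was read from a list of 56 genes that includes the 9 members. Of the 56 genes 46 were listed, and 22 were tested. Among the 14 tested genes other than the members, 2 (C8g and Cfp) were upregulated and 1 (Masp1) was downregulated in the early phase, 0 and 2 (Cfp and Masp2) in the late phase, and 1 (C8g) and 2 (C4a and Masp1) over the whole process. The shares over all tested genes, in the same order, were 9.77% and 7.98%, 4.24% and 2.81%, and 10.3% and 7.70%. The median log2 differences of the 14 genes were -0.01, -0.02 and -0.14, where those of all tested genes were 0.02, -0.01 and -0.02.

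Masp1 encodes a protease of the lectin pathway. It was at 14.98, 14.8 and 14.7 FPKM at day 0, 2.57, 2.20 and 1.45 at day 4 and 2.75, 2.64 and 2.71 at day 8. Every day 0 sample lay far above every later sample. The early log2 difference was -2.77 (SE 0.12, 6.80-fold, adjusted p = 6.0e-12 in edgeR) and the whole-process difference -2.34 (SE 0.12, adjusted p = 2.8e-11 in edgeR). Masp2, which encodes the other main protease of that pathway, stood at 0.99, 1.02 and 1.64 FPKM at day 4 and at 0.37, 0.28 and 0.56 at day 8. Its late-phase difference was -1.65 (SE 0.37, adjusted p = 0.0016 in edgeR), and 52.5% of its stretches are shared with Tardbp, so its level is uncertain. That call was lost with limma on log2(FPKM + 1) (-0.65). Masp2 was also called higher in the early phase without day 0 replicate 2 (1.08), and lower over the whole process without day 0 replicate 3 (-1.10) or day 8 replicate 3 (-1.12).

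Cfp encodes properdin, which stabilises the alternative-pathway enzyme. Like C3 it was highest at day 4, at 3.23, 3.25 and 3.47 FPKM, against 1.60, 1.65 and 1.56 at day 0 and 1.43, 1.25 and 1.73 at day 8. Its log2 difference was 1.11 (SE 0.15, adjusted p = 6.2e-06) in the early phase and -1.13 (SE 0.15, adjusted p = 1.7e-05) in the late phase in edgeR. With limma on log2(FPKM + 1) these were 0.73 and -0.81, below 2-fold. C8g encodes a chain of the C8 protein of the membrane attack complex. It stood at 1.15, 1.89 and 1.55 FPKM at day 0, 2.90, 2.83 and 3.25 at day 4, and 3.37, 2.75 and 3.29 at day 8. The early difference of C8g was 1.13 (SE 0.20, adjusted p = 9.3e-05 in edgeR), and without day 0 replicate 1 it was 1.00 and not called. The early call of C8g was also lost with limma on log2(FPKM + 1) (0.67) and log2(FPKM + 0.1) (0.95), and its whole-process call with the first of these (0.72). The other 6 of the 7 terminal genes (Hc, C6, C7, C8a, C8b and C9) had at most 7 expected counts in any sample and at most 0.06 FPKM, and were not tested. C4a was at 0.28 FPKM or below in every sample and was downregulated over the whole process (log2 difference -1.10, SE 0.34, adjusted p = 0.0093 in edgeR). Its level is uncertain, since 30.6% of its stretches are shared with C4b. The C4a call was lost without day 8 replicate 1 (-0.78) or day 8 replicate 2 (-1.0), and with limma on log2(FPKM + 1) (-0.18) or log2(FPKM + 0.1) (-0.83). In the late phase the value of C4a was -0.99 and not called. It was called lower there with library size alone (-1.03), without day 4 replicate 1 (-1.05) or without day 8 replicate 3 (-1.51).

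The 4 genes of the C1 proteases (C1ra, C1rb, C1s1 and C1s2) lie next to each other on chromosome 6. All 4 were lower at day 4 than at day 0 by the adjusted p alone, as were 33.7% of all tested genes, and none was called. The early log2 differences were -0.33 for C1rb (adjusted p = 2.2e-04), -0.24 for C1s1 (adjusted p = 0.0031) and -0.43 for C1s2 (adjusted p = 4.9e-05) in edgeR. In the late phase the differences were 0.21 for C1rb (adjusted p = 0.012), 0.19 for C1s1 (adjusted p = 0.025) and 0.07 for C1s2 (adjusted p = 0.45) in edgeR. Over the whole process they were -0.11 (adjusted p = 0.11), -0.05 (adjusted p = 0.45) and -0.36 (adjusted p = 2.6e-04) in edgeR. Of the stretches of C1rb, C1s1 and C1s2, 60.5%, 35.1% and 26.9% are shared with other genes, mostly C1ra, C1s2 and C1s1. Their single levels are therefore uncertain. The sum of C1s1 and C1s2 was 220.1 ± 15.55, 184.2 ± 13.32 and 208.1 ± 7.757 CPM at days 0, 4 and 8 (SD, n = 3). The genes of the C1q chains that bind these proteases were not listed, nor were those of the mannose-binding lectins. Cd59a, which encodes a membrane inhibitor of the attack complex, was at 15.5, 14.98 and 15.5 FPKM at day 0, 21.9, 21.7 and 21.9 at day 4, and 20.1, 19.7 and 19.0 at day 8. Its early difference was 0.58 (SE 0.06, adjusted p = 1.1e-07 in edgeR), below 2-fold. Cr1l, the gene of another membrane inhibitor that acts on C3 and C4 fragments, had means of 15.5, 11.4 and 13.9 FPKM at days 0, 4 and 8. Its early and late log2 differences were -0.37 (SE 0.08, adjusted p = 4.2e-04) and 0.32 (SE 0.08, adjusted p = 0.0030) in edgeR, both below 2-fold. C1qbp, which encodes a mitochondrial protein first found by its binding of C1q, was the most abundant of the other complement genes, with means of 83.5, 104 and 88.4 FPKM. Its early difference was 0.38 (SE 0.05, adjusted p = 8e-06 in edgeR), and it was not called. Cfi, the gene of the soluble protease factor I that cuts C3b, reached at most 0.05 FPKM. The 24 listed complement genes that were not tested, C2 among them, stood at 0.34 FPKM or below in every sample.

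**Figure D4:**
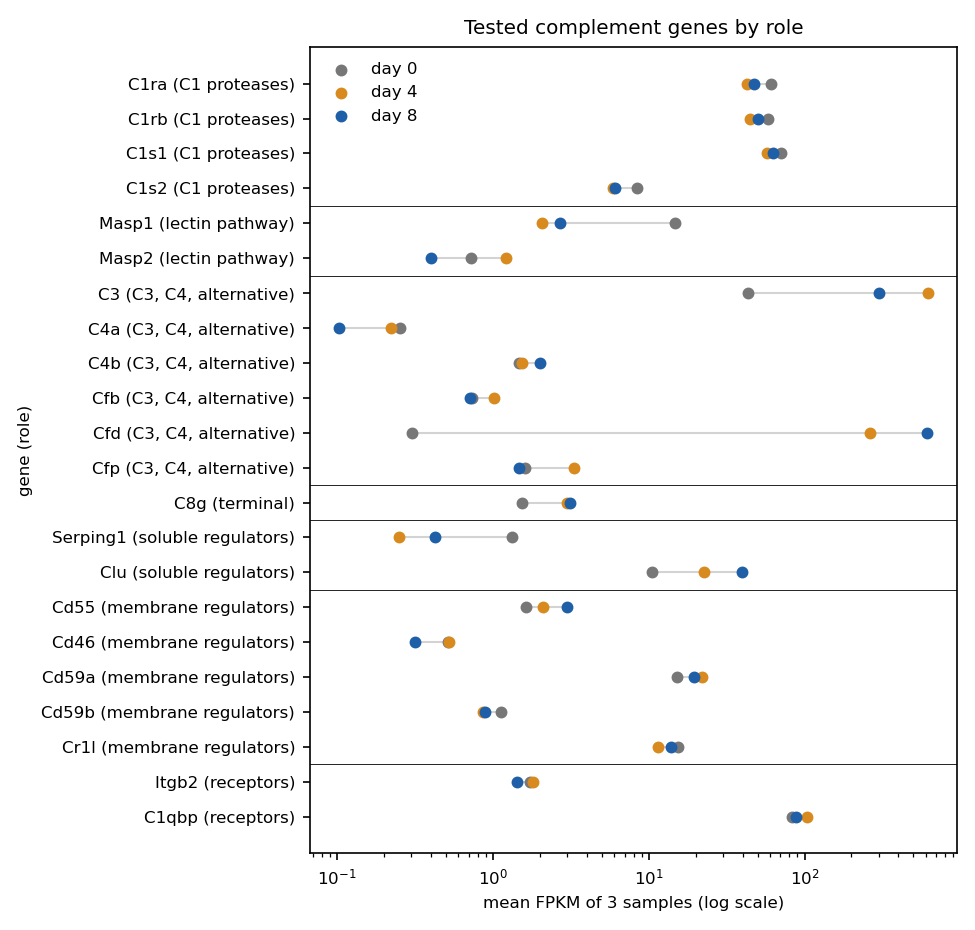
Mean FPKM of 3 samples (horizontal, log scale) of the 22 tested complement genes (vertical, with their role) at day 0 (grey), day 4 (orange) and day 8 (blue). Cfd spans from 0.303 to 609 FPKM and C3 from 43.6 to 616, Masp1 lies to the left of its day 0 level at both later days, and the points of most other genes lie close together.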

How the data were processed

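RNA-seq was done on a mouse preadipocyte line, 3T3-L1, with 3 samples for each of day 0, 4 and 8, as labelled. Per the sources, reads were filtered, aligned with HISAT/Bowtie2 and quantified with RSEM; the submitters' processing notes also name CASAVA 1.4. The authors deposited, for each sample and gene, RSEM expected counts (29.8% were not whole numbers), FPKM values and transcript lengths. Genome build and strand setting were not given in the sources used here. A gene with no row in a sample's file was taken as 0.

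Expected counts were rounded, filtered with filterByExpr by day (13154 genes kept), scaled by TMM (factors 0.954 to 1.05) and fitted over all 9 samples with the quasi-likelihood test of edgeR 4.0.16 in R 4.3.3, with Benjamini-Hochberg adjustment over all tested genes. Calls needed an adjusted p below 0.05 and a fold above 2, and "upregulated" and "downregulated" are used of called genes only. FPKM served for levels. Samples held 18216114 to 20452144 expected counts, and the floor of 3 counts covers counting error only.

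The members and lists were chosen with earlier results of these data known. All members were named, other complement genes where called in any comparison or to describe a role, and for likeness the 5 genes closest to Cfd and the 1 closest to each other tested member, except that the gene closest to C1ra is not reported here. The C1 proteases, Cd59a, Cr1l, C1qbp, Cfi, C3ar1 and the other receptor genes too low to test were named after their values were seen. Lists of marker genes covered adipocytes, fibroblasts, macrophages, endothelial cells, hepatocytes and sensory neurons. Shared 50-base stretches were counted in GENCODE vM21 transcripts. Alternatives were RLE, upper-quartile and library-size scaling, no filter, a minimum of 10 counts, DESeq2 1.42.0, edgeR's exact test, limma 3.58.1 on log2(FPKM + 1) and log2(FPKM + 0.1), only the 2 days compared, a replicate block, the adjusted p alone, and each sample left out.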

Additional observations from a re-analysis of the deposited data

How the results depend on the processing

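The calls given here are numbers of genes higher and lower. The adjusted p alone gave 5 and 2 members, 10 and 7 complement genes and 4676 and 4430 of all genes in the early phase, 5 and 1, 9 and 5, and 2964 and 2989 in the late phase, and 5 and 2, 8 and 5, and 4583 and 4756 over the whole process, against 3 and 1, 5 and 2, and 1285 and 1050, then 1 and 0, 1 and 2, and 558 and 370, and then 3 and 1, 4 and 3, and 1356 and 1013 with the 2-fold threshold. With limma on log2(FPKM + 1), which compresses low genes, 0 members were lower in the early phase, 1 in the late phase and 0 over the whole process, complement genes numbered 3 and 1 in the early phase with 1 lower in each of the other comparisons, and all genes numbered 708 and 565, 224 and 136, and 753 and 528. A minimum of 10 counts in every sample left 11799 genes and dropped Cfd and Serping1, which gave no called lower member (0) in the early phase or the whole process, 0 higher members and complement genes in the late phase, 1 lower complement gene in each comparison, and 831 higher genes in the early phase and 310 and 173 in the late phase. Without a filter, complement genes numbered 5 lower in the early phase, 2 higher in the late phase, and 7 and 5 over the whole process. In the late phase 1 member, C3, was lower with upper-quartile scaling, with library size alone (4 lower complement genes) and with limma on log2(FPKM + 0.1), at -1.0, -1.04 and -1.04. The cause of these differences was not tested except where the construction is named.

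Leaving out 1 sample at a time gave 3 to 3 higher and 1 to 1 lower members, 5 to 7 and 2 to 4 complement genes and 1262 to 1347 and 1036 to 1154 of all genes in the early phase. It gave 1 to 2 and 0 to 1, 1 to 2 and 2 to 4, and 548 to 589 and 345 to 394 in the late phase, and 3 to 4 and 1 to 1, 4 to 6 and 3 to 5, and 1376 to 1417 and 1014 to 1076 over the whole process. Serping1 was the second higher member in the late phase, without day 4 replicate 2. The early phase had 4 lower complement genes whenever a day 4 or day 8 sample was left out, the late phase 4 without day 4 replicate 1 or day 8 replicate 3, and the whole process 5 without day 8 replicate 3. Values near 0 changed sign over the whole process. Cfb was -0.04 with library size alone, -0.02 and -0.03 with limma on log2(FPKM + 1) and log2(FPKM + 0.1), -0.11 without day 0 replicate 3 and -0.14 without day 8 replicate 2. Its values with 1 sample left out ran up to 0.28. C1s1 was 0.00 without day 0 replicate 3 and -0.10 without day 0 replicate 2, Cd59b was 0.05 without day 8 replicate 1 and -0.35 without day 8 replicate 2, and Cfp was 0.00 with RLE, with DESeq2 and without day 0 or day 4 replicate 2, 0.01 without day 8 replicate 1 and 0.09 without day 8 replicate 2. Late-phase Cd59b was -0.04 without day 8 replicate 2 and 0.36 without day 8 replicate 1. Across the alternatives other than the threshold, 455 of 474 member values and 802 of 828 of the other complement genes kept their direction and call. Cfd was higher in every alternative that tested it, by 7.64 to 9.97, 1.10 to 1.43 and 8.87 to 11.21 on the log2 scale in the 3 comparisons. On log2(FPKM + 1) the closest gene stayed the same for 4 of the 7 other members.

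The replicate block gave 3 and 1 members, 5 and 2 complement genes and 1287 and 1053 genes in the early phase, 1 and 0, 1 and 2, and 556 and 367 in the late phase, and 3 and 1, 4 and 3, and 1360 and 1010 over the whole process. The deviations of same-numbered samples of different days had a mean correlation of 0.0307 over 9 pairs, 0 of them above 0.1. For differently numbered samples the mean was -0.0154. These low values cannot settle whether same-numbered samples shared a culture or a batch, since a small shared effect could go unseen.

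Depth limits, among the 9 members, day 0 Cfd (4 to 6 counts), C2 (1 to 9 counts) and Serping1 (down to 5 counts).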

Other observations

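At day 4 the 3 samples differed more in Cfd than in C3. The coefficient of variation of FPKM was 23.3% for Cfd and 1.26% for C3. It was 20% for Adipoq, 19.2% for Fabp4, a fatty acid carrier, and 16.1% for Plin1, a lipid droplet coat protein. The spread was not the same for all adipocyte markers. The others stood at 93.2 ± 6.41 (Pparg), 87.2 ± 15.8 (Cebpa), 1266 ± 182 (Lpl), 773 ± 132 (Cidec) and 0.157 ± 0.0351 (Lep) FPKM at day 4 (SD, n = 3). The ratio of Cfd to Adipoq was 0.538 to 0.577 at day 4, with a coefficient of variation of 3.60%, and 0.720 to 0.777 at day 8, with 4.19%, so these 2 days did not overlap. At day 0 the ratio was 0.367 to 1.14, which spans both, from 4 to 6 counts of Cfd and 7 to 15 of Adipoq per sample. At day 8 the coefficients of variation of Cfd, C3 and Adipoq were 10.8%, 7.41% and 7.27%. These values describe 3 samples a day and were not tested.

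C3ar1, the gene of the receptor for the C3a fragment released from C3, was at 0.11 to 0.23 FPKM at day 0 and at no more than 0.02 at days 4 and 8. It had at most 18 expected counts in a sample and was too low to test. Other receptor genes too low to test did not share this course. C5ar2 and Itgax had means of 0.0233 and 0.00333 FPKM at day 0 and of 0.1 and 0.0867 at day 8. C5ar1, Cr2 and Itgam did not exceed 0.02, 0.05 and 0.02 FPKM in any sample.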
